A study of Mus musculus with 18 samples.

Results

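The immediate early response genes followed here were Fos, Fosb, Fosl1, Jun, Junb, Egr1, Egr2, Ier2, Ier3 and Atf3. They were taken by symbol, and all 10 were found among the 55401 genes counted in each tissue. RNA was sequenced from skin and lung of female wild-type mice, with 3 libraries per group and 18 libraries in all. La-Cer mice received ovalbumin (50 µg) and calcipotriol (4 nmol; also called MC903), a vitamin D analogue, for 28 days together with an emollient of linoleic acid-ceramide. AD mice, a model of atopic dermatitis, received the same calcipotriol and ovalbumin without that emollient. Control mice were untreated, so no group received a vehicle alone. The labels give no interval between killing and RNA extraction.

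Immediate early genes are transcribed within minutes of a stimulus, without new protein synthesis, from promoters that serum response factor, CREB and related factors occupy beforehand. Fos and Jun proteins pair to form AP-1, a regulator of growth, differentiation and inflammation in the epidermis and the lung, and Egr proteins bind GC-rich promoter elements. The same genes respond to wounding, stretch, cell dissociation and other handling of tissue, so their RNA is often read as a record of the last minutes before a sample was fixed or lysed.

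The following promoters carry letters that match sites of CREB/ATF, Egr proteins or serum response factor, or the TATA box. They are matches of letters only, and whether each site acts was not tested. Sequences are from RefSeq on GRCm38.p6, read 5′ to 3′ on the gene's strand and ending upstream of the RefSeq start used. Capitals in the Fos stretch (chr12:85473750-85473889, plus strand) mark TGACG, the core of a CREB/ATF site, at 129 and 66 bases before the start and the TATA box letters TATAAA at 33 bases. In Fosb (chr7:19310055-19310185, minus strand) they mark TGACG at 60 bases and an Egr-type site, GCGNGGGCG, at 50 bases, and in Junb (chr8:84978749-84978888, minus strand) they mark TGACG at 106 bases. In Egr2 (chr10:67537787-67537816, plus strand) they mark a CArG box, the element of serum response factor, at 72 bases. The counted Egr2 gene spans chr10:67535475-67542188, so this stretch and the start it precedes lie inside that span.
Fos: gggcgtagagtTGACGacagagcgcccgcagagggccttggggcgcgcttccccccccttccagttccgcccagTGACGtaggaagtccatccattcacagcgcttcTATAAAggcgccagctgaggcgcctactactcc
Fosb: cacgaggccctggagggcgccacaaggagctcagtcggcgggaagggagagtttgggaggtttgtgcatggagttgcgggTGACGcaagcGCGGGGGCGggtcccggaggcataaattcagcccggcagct
Junb: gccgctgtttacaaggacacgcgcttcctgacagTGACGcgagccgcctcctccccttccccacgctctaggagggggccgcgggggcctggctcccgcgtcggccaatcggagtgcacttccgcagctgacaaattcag
Egr2: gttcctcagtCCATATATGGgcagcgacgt
Promoters of 300 bases, from 250 before to 50 after the start, were matched for 7 of the 10 genes and searched on both strands. Sites farther than 250 bases before the start were not searched, so an absence holds for this window only. TGACG was present for 5 of the 7 genes (Atf3, Egr2, Fos, Fosb and Junb) and in 20.8% of all 32851 promoters. The CArG box was present for 1 of 7 and in 1.63% of all, GCGNGGGCG for 1 of 7 and in 5.55%, and TATAAA for 2 of 7 (Fos and Junb) and in 13.6%. TGANTCA, the AP-1 site itself, was present for 0 of 7 and in 7.81% of all promoters, and the variant TGACATCA for 1 of 7 (Jun) and in 3.62%.

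Skin libraries held 13472283 to 18647521 counts and lung libraries 15904723 to 19338972. The summed level of 8 keratinocyte markers was at least 8599 CPM (counts scaled to library size by TMM factors) in every skin library and at most 90.2 CPM in lung, while 7 markers of alveolar type 2 cells summed to at least 22076 CPM in lung and at most 63.0 CPM in skin. Skin libraries differed within groups in what tissue they held. The 8 skeletal muscle markers summed to 10396 to 42470 CPM in AD skin and 15982 to 55564 CPM in control skin, and 10 hair follicle markers to 249 to 4298 CPM in AD skin and 389.9 to 15372 CPM in control skin. Control replicate 3 held both the most skeletal muscle and the least hair follicle RNA of its group. Its keratinocyte sum was also the highest of the group, at 29602 CPM against 8599 and 11807 CPM in replicates 1 and 2. The same held for 6 smooth muscle markers, at 2361 CPM against 692 and 772 CPM. Libraries also differed by transcript length. With genes split into 5 classes by exonic size, the longest class minus the shortest was -0.64 ± 0.36 log2 units in AD skin and 0.55 ± 0.27 in control skin (SD, n = 3 each).

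In control tissue, the order of the genes was read per transcript length from the authors' FPKM. In control skin the mean FPKM was 151 ± 5.63 for Junb, 86.8 ± 11 for Ier2, 76.3 ± 65.8 for Fos, 73.3 ± 6.32 for Jun and 67.2 ± 13.6 for Egr1 (SD, n = 3). It was 30.6 ± 3.98 for Ier3, 16.3 ± 5.62 for Egr2, 6.93 ± 6.82 for Fosb, 6.08 ± 2.78 for Atf3 and 0.207 ± 0.135 for Fosl1. The ranges of neighbouring genes overlapped from Ier2 down to Egr1 and from Egr2 down to Atf3, so the order within those runs was not resolved with 3 libraries. Junb, at 144 to 154, also overlapped Fos, at 35.7 to 152, so the order of Junb and Fos was not resolved either. In control lung the mean FPKM was 122 ± 46.6 for Jun, 69.0 ± 20.4 for Ier3, 55.0 ± 3.26 for Ier2, 34.1 ± 8.02 for Junb, 10.4 ± 5.51 for Fos and 6.32 ± 4.34 for Egr1 (SD, n = 3). It was 3.67 ± 1.22 for Atf3, 1.15 ± 0.602 for Egr2, 0.467 ± 0.215 for Fosb and 0.0767 ± 0.0862 for Fosl1. Here the ranges overlapped from Jun to Ier2, from Fos to Atf3 and between Egr2 and Fosb.

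Between control skin and control lung, 7 of the 10 genes differed at an adjusted p under 0.05, against 42.8% of the 19129 genes tested with edgeR's quasi-likelihood test over all 18 libraries. Fos, Fosb, Junb, Egr1 and Egr2 were higher in skin, 5 of 10 against 18.5% of all genes, and Jun and Ier3 were lower in skin, 2 of 10 against 24.3%. Egr2, a zinc finger factor of hair follicle and nerve, stood at 64.5, 55.2 and 36.5 CPM in control skin and 1.77, 4.20 and 5.40 CPM in control lung, a log2 difference of 3.78 ± 0.39 (SE; edgeR adjusted p = 8.67e-07). Egr1, its broadly expressed relative, differed by 3.42 ± 0.47 (edgeR adjusted p = 1.71e-05), and Junb, a Jun relative that can counter Jun activity, by 2.10 ± 0.32 (edgeR adjusted p = 4.67e-05). Fos and Fosb differed by 2.92 ± 0.67 and 3.94 ± 0.91 (1.78 and 2.62 without skin control replicate 3, both still called), Jun by -0.76 ± 0.29 and Ier3, a regulator of cell survival, by -1.22 ± 0.23. Of the 7 genes, Jun was the 1 whose libraries overlapped between the tissues, at 197, 210 and 272 CPM in skin and 252, 390 and 507 CPM in lung.

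In AD skin, Fos, Jun and Egr1 fell relative to control skin. These 3 of 10 genes, all lower, stand beside 6.86% of the 16956 genes tested in skin that were called in either direction and 3.44% called lower. At an unadjusted p under 0.05 there were 5 of the 10 genes, against 28.9% of all genes tested. The median log2 difference was -0.43 over the 10 genes and -0.05 over all genes tested.

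Fos (chr12:85473890-85477273), the classical partner of Jun in AP-1, stood at 15.1, 18.8 and 20.6 CPM in AD skin, against 73.1, 88.9 and 370 CPM in control skin. Control replicate 3 was far above its group, yet every AD library lay below every control library. The log2 difference was -3.29 ± 0.67 (SE; edgeR adjusted p = 0.0413). Without control replicate 3 it was -2.10 and still passed (edgeR adjusted p = 0.0413).

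Fosb (chr7:19302696-19310051), a Fos relative induced alongside it, stood at 5.87, 2.67 and 0.145 CPM in AD skin and 25.3, 8.81 and 94.2 CPM in control skin. The groups did not overlap and both were widely spread, and the log2 difference of -3.87 ± 1.11 missed the threshold (edgeR adjusted p = 0.0613). Without control replicate 3 it was -2.50. Fosl1 (chr19:5447547-5455946), the Fra-1 subunit linked to keratinocyte migration, was close to the detection limit with 19, 8 and 0 counts in AD skin and 13, 2 and 8 counts in control skin.

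Jun (chr4:95049034-95052222), the main AP-1 partner of Fos, stood at 84.7, 99.0 and 108 CPM in AD skin and 192, 208 and 266 CPM in control skin. The 2 groups were tight and apart, with a log2 difference of -1.19 ± 0.27 (edgeR adjusted p = 0.0417). Without control replicate 3 it was -0.98 and missed the threshold (edgeR adjusted p = 0.0744). Junb (chr8:84976910-84978718) averaged 172 ± 33.0 CPM in AD skin and 257 ± 26.8 CPM in control skin (SD, n = 3 each), with a log2 difference of -0.59 ± 0.34 that did not pass (edgeR adjusted p = 0.277).

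Egr1, a zinc finger factor induced by growth signals and mechanical stress, stood at 53.9, 52.7 and 79.4 CPM in AD skin and 277, 216 and 364 CPM in control skin. Every AD library lay below every control library, and the log2 difference was -2.20 ± 0.36 (edgeR adjusted p = 0.0413). Without control replicate 3 it was -1.94 (edgeR adjusted p = 0.0383). Egr2 did not follow it: the libraries stood at 47.3, 51.9 and 69.3 CPM in AD skin and 62.8, 54.6 and 35.7 CPM in control skin, overlapping throughout, with a log2 difference of 0.14 ± 0.32 (edgeR adjusted p = 0.805).

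The remaining genes held 3 patterns. Ier3 (chr17:35821684-35822923) stood at 53.8, 57.9 and 47.7 CPM in AD skin and 34.4, 31.1 and 31.7 CPM in control skin, the reverse direction without overlap. Its log2 difference of 0.71 ± 0.27 did not pass (edgeR adjusted p = 0.111). Ier2 (chr8:84661331-84662854), a short-lived nuclear protein, averaged 102 ± 35.8 CPM in AD skin and 125 ± 16.1 CPM in control skin. Atf3 (chr1:191170296-191218039), a stress-induced partner of Jun, had 1 high library in AD skin and 1 low library in control skin, at 34.9, 7.78 and 3.76 CPM in AD skin and 14.0, 5.73 and 17.5 CPM in control skin. Neither Ier2 nor Atf3 passed the test (edgeR adjusted p = 0.642 and 0.824).

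**Figure D1:**
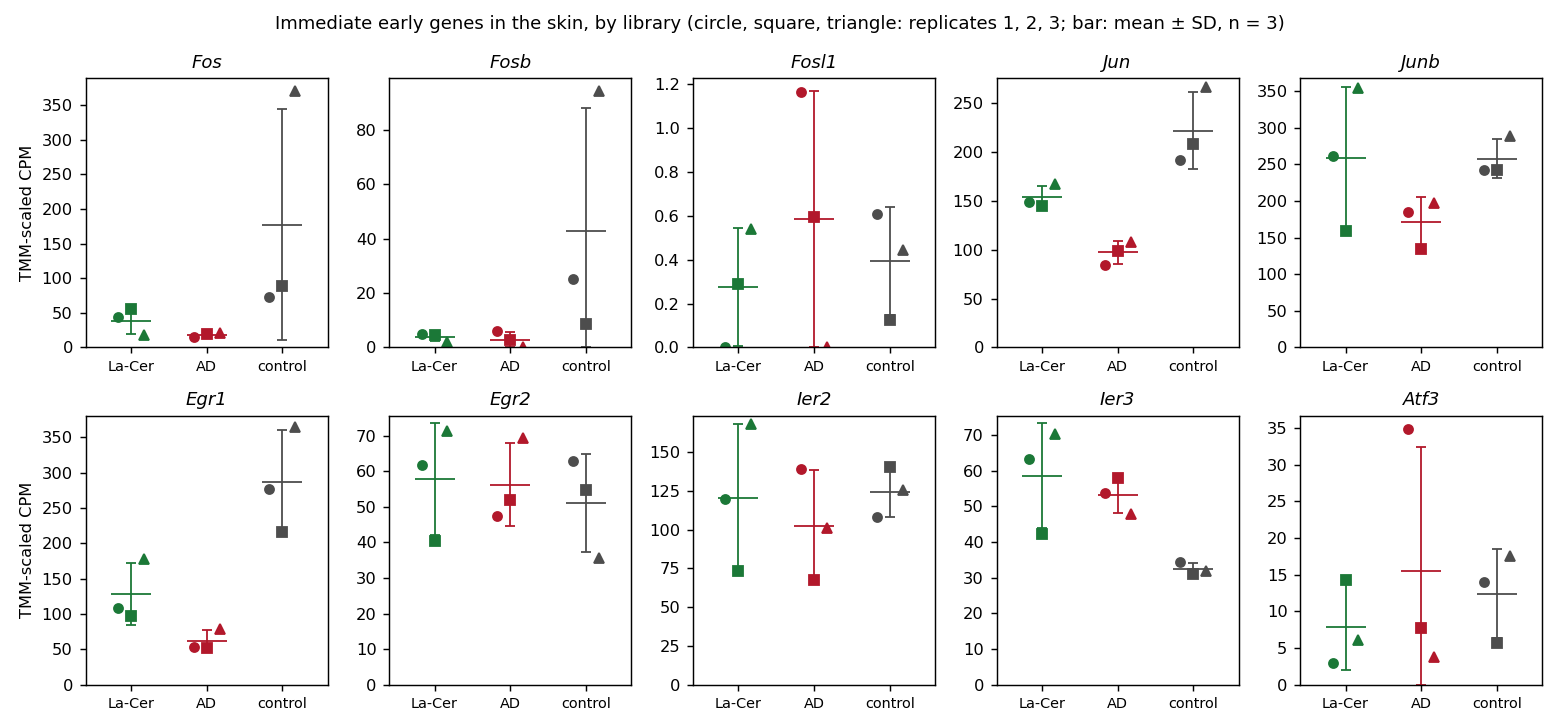
CPM scaled by TMM (vertical axis) of each immediate early gene in the skin libraries of La-Cer, AD and control mice (horizontal axis); circle, square and triangle are replicates 1, 2 and 3, and bars are the mean ± SD of 3 libraries, with the lower end drawn no lower than 0. For Fos, Jun and Egr1 each AD library lies below each control library, and for Fos and Fosb control replicate 3 stands at 370 and 94.2 CPM.

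In all, the AD and control libraries did not overlap for 6 of the 10 genes, against 34.5% of all genes tested. Fos, Fosb, Jun, Junb and Egr1 lay below control and Ier3 above. The 3 calls were near the threshold: all 3 were lost without control replicate 1 (edgeR adjusted p = 0.169 each), without control replicate 2 (0.112), without any 1 AD library (0.0509 to 0.105) or with the trend on transcript length removed (0.0691), where the log2 differences were -3.51 for Fos, -1.22 for Jun and -2.02 for Egr1. Marker sums of 8 of 20 cell type lists did not overlap between AD and control skin, 7 higher and 1 lower in AD, beside the 34.5% of single genes. The 8 neutrophil markers summed to 42.7, 226 and 804 CPM in AD skin and 9.10, 16.7 and 9.02 CPM in control skin, where Mpo, Ly6g and Retnlg were at 0. The 9 macrophage markers summed to 261, 344 and 333 CPM in AD skin, with Marco at 0, and 69.5, 110 and 197 CPM in control skin. The 6 mast cell markers summed to 27.2, 57.1 and 50.5 CPM in AD skin and 8.64, 4.07 and 6.85 CPM in control skin, and the 6 sebaceous gland markers to 3521, 9608 and 9340 CPM in AD skin and 1987, 1300 and 1480 CPM in control skin. The same sebaceous gland list summed to 1953, 2199 and 1119 CPM in control lung, so it was not particular to skin. T cell, B cell and red blood cell markers were also higher in AD and ciliated cell markers lower, while the muscle, hair follicle and keratinocyte sums overlapped. The B cell sums were low, at 2.02 to 3.93 CPM in AD skin and 0.123 to 0.724 CPM in control skin, where Blk was at 0. Ciliated cell sums were also low, at 1.83 to 4.26 CPM in AD skin and 5.46 to 8.87 CPM in control skin. Dnah5 of the ciliated cell list and Cd8a of the T cell list were at 0 in both groups. In bulk tissue, fewer cells of a type and less RNA per cell cannot be told apart, and the part of these lists in the values of Fos, Jun and Egr1 was not tested.

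The wider pathway in AD skin was read from lists of related genes. Of 11 other AP-1 and ATF subunits tested, 0 rose and 3 fell, with a median log2 difference of -0.68. Of all genes tested, 6.86% were called in either direction and 3.44% called lower. Fosl2, the Fra-2 subunit, stood at 62.9, 110 and 75.6 CPM in AD skin and 227, 157 and 194 CPM in control skin (log2 difference -1.22 ± 0.30, edgeR adjusted p = 0.0449). Mafg, a small Maf protein, and Atf7, a relative of Atf2, differed by -1.22 ± 0.28 and -1.78 ± 0.42. Of 16 feedback inhibitors, which shut the response down, 1 fell: Zfp36l1, a protein that promotes decay of AU-rich mRNAs, at 59.9, 82.9 and 76.0 CPM in AD skin and 205, 152 and 221 CPM in control skin (-1.40 ± 0.31, edgeR adjusted p = 0.0417). Among 30 other immediate early genes, 0 passed edgeR's test, 5 had an unadjusted p under 0.05 and 4 passed in DESeq2, against 28.9% and 18.3% of all genes tested, and the median was -0.08. Among 18 upstream kinases and factors, 0 passed in edgeR, 4 had an unadjusted p under 0.05 and 0 passed in DESeq2, with a median of -0.57.

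Lists for other kinds of stress were mixed. Of 16 heat shock genes, 1 rose and 2 fell, where 6.86% of all genes tested were called in either direction and 3.44% called lower. Hsph1, a chaperone of the HSP110 family, stood at 50.5, 42.0 and 24.6 CPM in AD skin and 175, 103 and 110 CPM in control skin (-1.73 ± 0.35, edgeR adjusted p = 0.0413). Hspa1a, the inducible HSP70, stood at 37.6, 37.4 and 33.3 CPM in AD skin and 64.8, 73.9 and 94.5 CPM in control skin (-1.11 ± 0.28, edgeR adjusted p = 0.0459). Hspe1, the mitochondrial co-chaperonin HSP10, rose and stood at 241, 229 and 449 CPM in AD skin and 111, 121 and 75.8 CPM in control skin (1.58 ± 0.41). Of 11 genes of the integrated stress response, 1 fell (Sesn2, a stress-induced inhibitor of mTORC1 signalling, -1.82 ± 0.43). Of 10 glucocorticoid-responsive genes 0 passed in edgeR, 1 had an unadjusted p under 0.05 and 1 passed in DESeq2. Over all genes tested these shares were 6.86%, 28.9% and 18.3%. The corresponding counts for 12 hypoxia genes were 0, 2 and 1, beside the same shares. The 8 listed genes named here as called in AD skin all missed the threshold with the length trend removed, as the members did.

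In La-Cer skin, no immediate early gene differed from AD skin at the threshold, though Jun and Egr1 stood above AD in every library. With edgeR 0 of 10 genes were called, against 0% of all genes; 2 of the 10 had an unadjusted p under 0.05, against 18.9% of all genes, and DESeq2 called 0, against 5.80% of all genes. Jun stood at 149, 145 and 167 CPM in La-Cer skin and 84.7, 99.0 and 108 CPM in AD skin (log2 difference 0.66 ± 0.27, edgeR adjusted p = 0.228). Egr1 stood at 109, 96.7 and 178 CPM in La-Cer skin and 53.9, 52.7 and 79.4 CPM in AD skin (1.04 ± 0.35, edgeR adjusted p = 0.175). These were the 2 genes of 10 without overlap, against 22.5% of all genes tested, so this share was near the background.

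Fos was split in La-Cer skin, at 44.0, 54.8 and 17.4 CPM, of which replicate 3 fell within the AD range, and the log2 difference was 1.09 ± 0.62 (edgeR adjusted p = 0.359). Fosb averaged 3.86 ± 1.64 CPM in La-Cer skin and 2.89 ± 2.87 CPM in AD skin, and Junb 258 ± 97.7 CPM in La-Cer skin and 172 ± 33.0 CPM in AD skin (SD, n = 3 each). For Egr2, Ier2 and Ier3 the log2 differences were 0.04, 0.23 and 0.14, each smaller than its SE. Among the related genes, Fosl2 was at 175, 188 and 163 CPM in La-Cer skin and Hspa1a at 80.6, 96.2 and 57.3 CPM, each without overlap with AD skin. Of the 11 AP-1 and ATF subunits and the 16 heat shock genes, 0 in each list passed edgeR's test. In each list 4 had an unadjusted p under 0.05, against 18.9% of all genes, and 4 and 2 passed in DESeq2, against 5.80%.

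**Figure D2:**
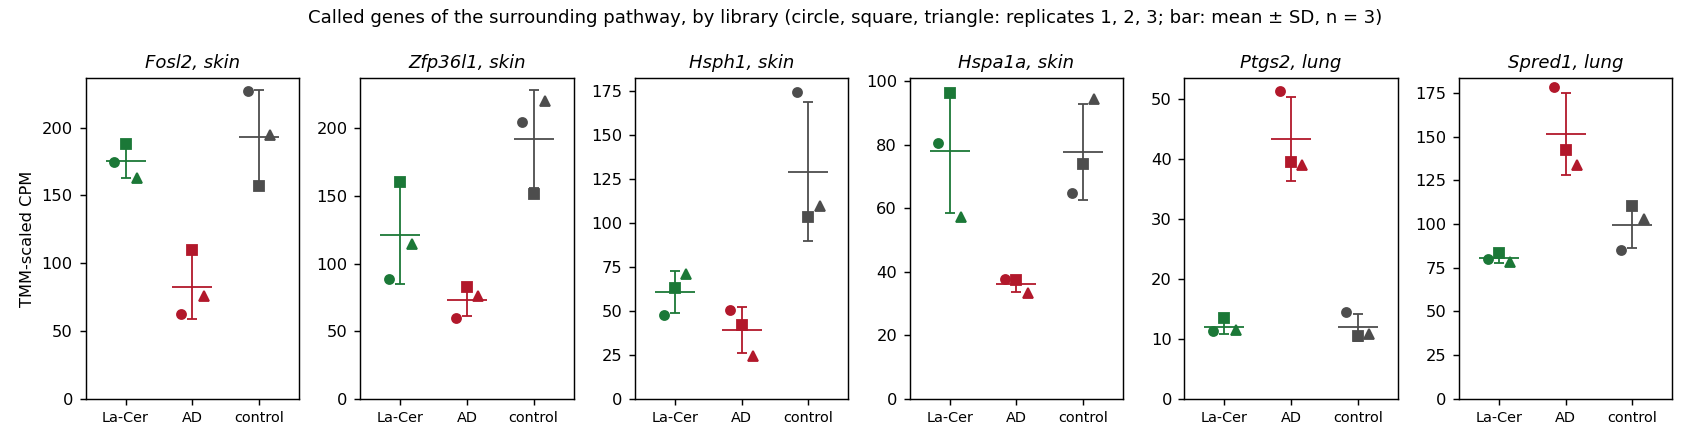
CPM scaled by TMM (vertical axes) of called genes around the immediate early response, by library in La-Cer, AD and control mice; the first 4 panels are skin and the last 2 lung, symbols are replicates and bars the mean ± SD of 3 libraries. AD libraries are the lowest for Fosl2 and Hspa1a in skin and the highest for Ptgs2 and Spred1 in lung.

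Relative to control skin, Fos and Egr1 stood lower in La-Cer skin, without a call. With edgeR 0 of 10 genes passed, against 0% of all genes, 4 of 10 (Fos, Fosb, Egr1 and Ier3) had an unadjusted p under 0.05, against 5.71% of all genes, and DESeq2 called 1 (Fosb), against 0.395% of all genes. The log2 differences were -2.20 ± 0.64 for Fos, -3.47 ± 1.08 for Fosb, -1.16 ± 0.35 for Egr1 and 0.85 ± 0.27 for Ier3 (edgeR adjusted p = 0.836 for each). Without control replicate 3 those of Fos and Fosb were -1.02 and -2.10. Fos, Fosb, Jun and Egr1 lay below control and Ier3 above in every library, 5 genes of 10 against 13.5% of all genes tested. The comparisons of AD and of La-Cer with control share the control libraries, and those of AD with control and of La-Cer with AD share the AD libraries.

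In the lung, the log2 differences of Fos, Fosb and Egr1 between AD and control were above 0. AD and control lung were compared over 9 tested genes, because Fosl1, with 7, 12 and 3 counts in AD lung and 0, 6 and 2 in control lung, did not pass the filter on low counts. With edgeR 0 of 9 genes were called, against 0.0463% of the 17272 genes tested in lung, 3 of 9 had an unadjusted p under 0.05, against 20.9% of all genes, and DESeq2 called 2 (Fosb and Egr2), against 8.64% of all genes.

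Fosb stood at 21.5, 9.37 and 7.51 CPM in AD lung, against 1.53, 3.76 and 3.56 CPM in control lung. The groups were apart, and the log2 difference was 2.11 ± 0.48 (edgeR adjusted p = 0.0875; DESeq2 adjusted p = 0.0011). Without AD replicate 1 it was 1.51. Egr2 stood at 9.14, 11.4 and 6.72 CPM in AD lung and 1.84, 4.38 and 5.62 CPM in control lung (1.20 ± 0.39, edgeR adjusted p = 0.152; DESeq2 adjusted p = 0.0433). Fos, in contrast with Fosb, overlapped between the groups, at 71.4, 35.3 and 24.5 CPM in AD lung and 17.5, 38.6 and 18.7 CPM in control lung (0.81 ± 0.58, edgeR adjusted p = 0.439).

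Ier2 was the gene below control in every AD lung library, at 67.1, 57.2 and 35.4 CPM in AD lung and 97.2, 86.1 and 78.5 CPM in control lung (-0.71 ± 0.25, edgeR adjusted p = 0.165). Its log2 difference was -0.36 with the length trend removed (edgeR adjusted p = 0.494). Ier3 was above control, at 102, 119 and 103 CPM in AD lung and 67.2, 102 and 71.7 CPM in control lung, where the nearest libraries almost touched. Jun averaged 299.7 ± 95.0 CPM in AD lung and 399 ± 133 CPM in control lung, and Egr1 42.4 ± 8.82 CPM in AD lung and 28.4 ± 18.5 CPM in control lung (SD, n = 3 each). Control replicate 1 of the lung, with Egr1 at 8.47 CPM, was the lowest control library for 7 of the 9 genes, and its longest class of genes stood at -1.17 log2 units from the shortest. Fosb, Egr2, Ier3 and Ier2 made 4 of 9 genes without overlap, against 24.3% of all genes tested.

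**Figure D3:**
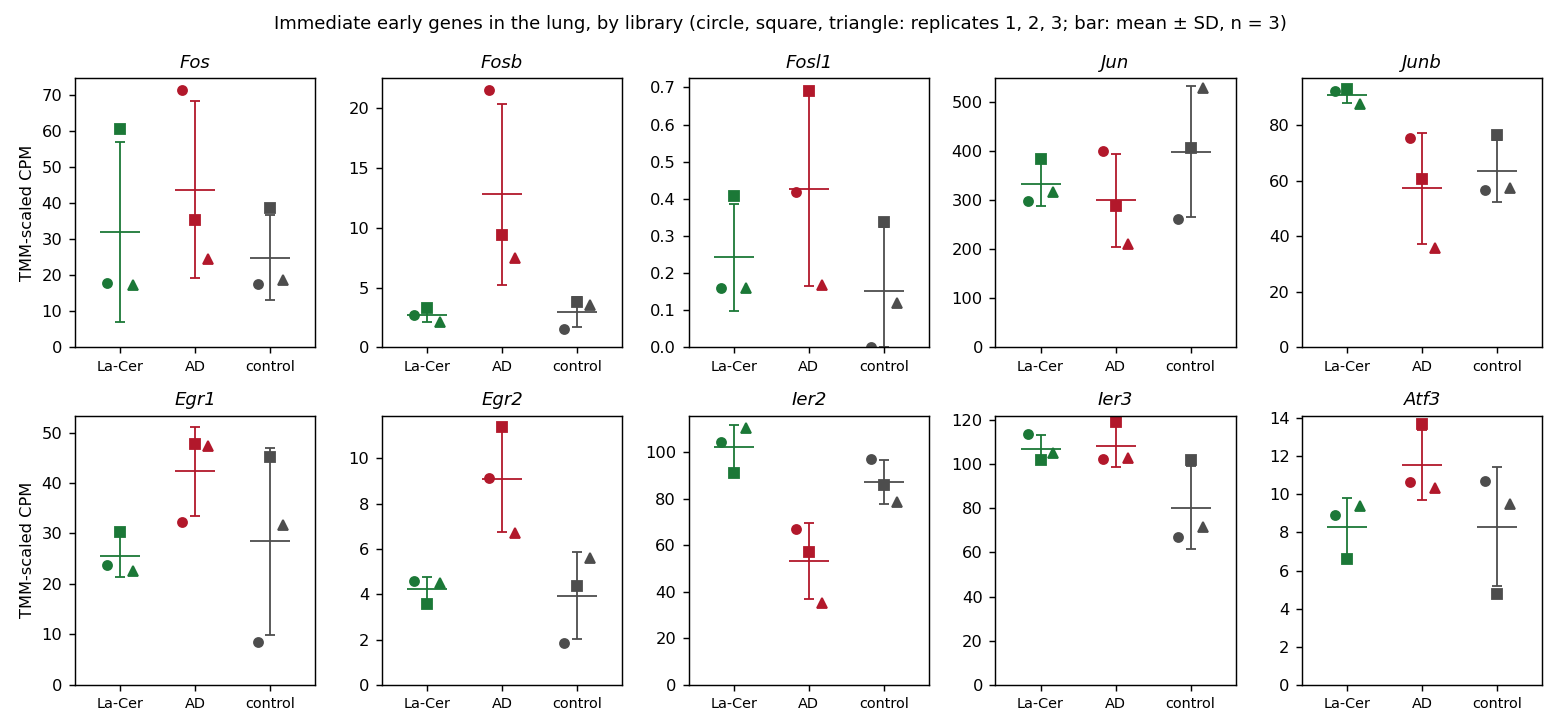
CPM scaled by TMM (vertical axis) of each immediate early gene in the lung libraries of La-Cer, AD and control mice (horizontal axis); symbols are replicates 1, 2 and 3 and bars the mean ± SD of 3 libraries, with the lower end drawn no lower than 0. For Fosb and Egr2 each AD library lies above each La-Cer and control library, and for Ier2 below.

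In La-Cer lung, Fosb, Egr2 and Ier2 stood apart from AD lung in every library without passing edgeR's test. Against AD lung, 0 of 9 genes passed edgeR's test, against 1.91% of all genes, 4 of 9 had an unadjusted p under 0.05, against 25.5% of all genes, and DESeq2 called 3 (Fosb, Egr2 and Ier2), against 14.5% of all genes. Fosb stood at 2.71, 3.32 and 2.12 CPM in La-Cer lung and 21.5, 9.37 and 7.51 CPM in AD lung, a log2 difference of -2.23 ± 0.48 at the edge of the threshold (edgeR adjusted p = 0.0502), and -1.63 without AD replicate 1. Ier2 stood at 105, 91.2 and 110.3 CPM in La-Cer lung and 67.1, 57.2 and 35.4 CPM in AD lung (0.94 ± 0.25, edgeR adjusted p = 0.0709). Egr2 stood at 4.57, 3.58 and 4.51 CPM in La-Cer lung and 9.14, 11.4 and 6.72 CPM in AD lung (-1.11 ± 0.39, edgeR adjusted p = 0.125). The longest class of genes minus the shortest was -0.30 ± 0.16 log2 units in La-Cer lung and 0.48 ± 0.19 in AD lung (SD). With the length trend removed, the log2 differences were -2.04 for Fosb, 0.51 for Ier2 and -1.21 for Egr2 (edgeR adjusted p = 0.0413, 0.286 and 0.116).

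Junb was tight in La-Cer lung at 92.2, 93.2 and 87.6 CPM, above the 75.3, 60.6 and 35.9 CPM of AD lung (0.67 ± 0.27, edgeR adjusted p = 0.158). Its log2 difference was 0.30 with the length trend removed (edgeR adjusted p = 0.610). Fosb, Egr1, Egr2 and Atf3 lay below AD and Junb and Ier2 above in every library, 6 of 9 genes against 44.6% of all genes tested, so this share was not far from the background. Against control lung, 0 of 9 genes passed in edgeR, against 0.0347% of all genes, 0 of 9 had an unadjusted p under 0.05, against 3.17% of all genes, and 0 passed in DESeq2, against 0.127% of all genes. Junb and Ier3 were above control in every La-Cer library, 2 of 9 genes against 11.3% of all genes tested.

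**Figure D4:**
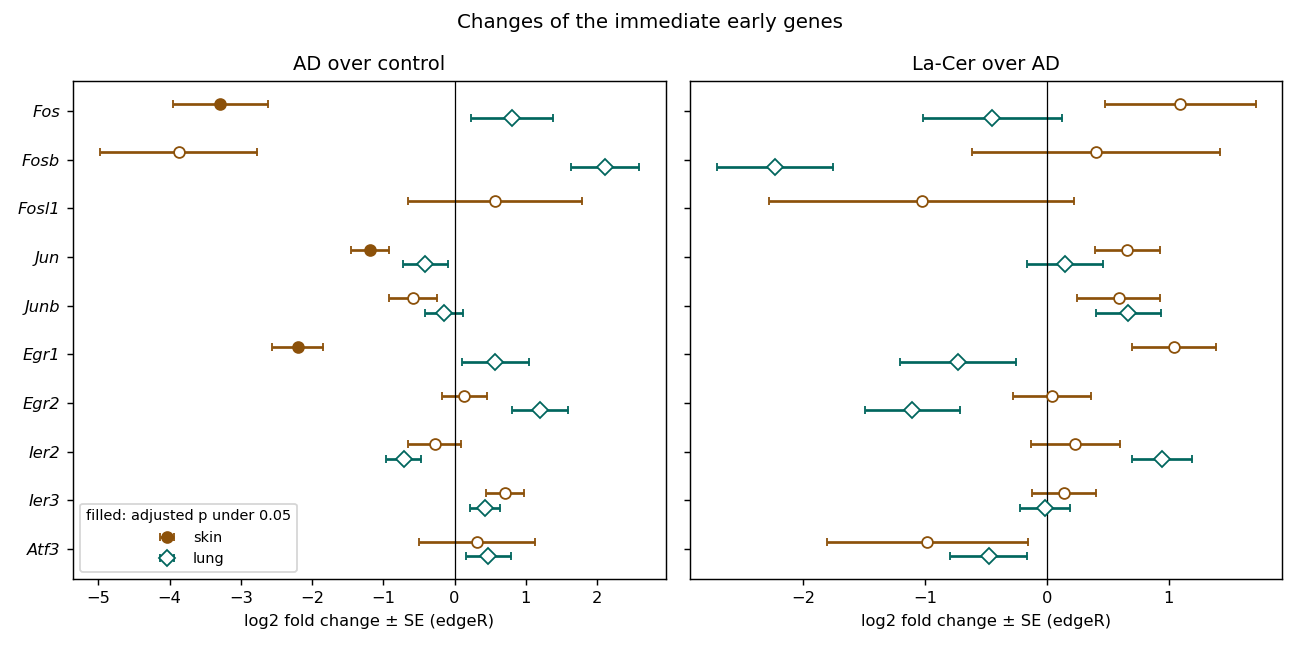
Log2 difference ± SE of each immediate early gene for AD over control (left) and La-Cer over AD (right), with skin as circles and lung as diamonds; filled symbols passed edgeR's adjusted p of 0.05. The 3 filled symbols are Fos, Jun and Egr1 in AD skin, at -3.29, -1.19 and -2.20.

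Around them, 1 of 31 other immediate early genes passed edgeR's test in lung, Ptgs2. Of all genes tested, 0.0463% passed in AD against control lung and 1.91% in La-Cer against AD lung. Ptgs2, which encodes the inducible cyclooxygenase 2 of prostaglandin synthesis, stood at 11.3, 13.4 and 11.4 CPM in La-Cer lung, 51.4, 39.5 and 39.0 CPM in AD lung and 14.5, 10.6 and 10.7 CPM in control lung. It rose in AD over control by 1.86 ± 0.21 log2 units (edgeR adjusted p = 0.0313) and was lower in La-Cer than in AD lung by -1.84 ± 0.21 (edgeR adjusted p = 0.0137). In AD against control lung 7 of the 31 genes had an unadjusted p under 0.05 and 4 passed in DESeq2, against 20.9% and 8.64% of all genes. In La-Cer against AD lung 4 and 3 of the 31 did, against 25.5% and 14.5% of all genes. Spred1, an inhibitor of Ras signalling, was the 1 called gene of 16 feedback inhibitors between La-Cer and AD lung, at 79.9, 83.3 and 78.3 CPM in La-Cer lung and 178, 143 and 134 CPM in AD lung (-0.91 ± 0.19, edgeR adjusted p = 0.0498). Of the 16, 6 had an unadjusted p under 0.05 and 3 passed in DESeq2, against the same 25.5% and 14.5% of all genes. The call of Ptgs2 between AD and control was lost in 7 of 12 alternatives: with the replicate block (edgeR adjusted p = 0.118), with only the libraries compared (0.307), without any 1 AD library (0.0623 to 0.144) and without control replicate 2 (0.0617) or 3 (0.0740). Between La-Cer and AD it was lost in 5 of 12, without any 1 La-Cer library (0.0618 to 0.171) and without AD replicate 1 (0.0506) or 2 (0.0706). Spred1 lost its call in 9 of 12, with RLE factors (0.0505), without the low-count filter (0.0870), with the block (0.0927) and without any 1 library of either group (0.0784 to 0.225). The 8 neutrophil markers summed to 83.4, 82.9 and 89.4 CPM in La-Cer lung, 311, 232 and 81.5 CPM in AD lung and 98.1, 46.4 and 37.1 CPM in control lung, with no marker at 0 throughout a group. The neutrophil sums of La-Cer and of control lung overlapped those of AD lung. Of 20 cell type lists, 8 did not overlap between La-Cer and AD lung, all higher in La-Cer. Among single genes tested 44.6% did not overlap, so this share was near the background. These lists included the 8 skeletal muscle markers, at 113 to 494 CPM in La-Cer lung and 16.2 to 80.5 CPM in AD lung. They also included the 7 alveolar type 2 markers, at 31492 to 34016 CPM in La-Cer lung and 22510 to 28651 CPM in AD lung. Between AD and control lung 2 of 20 lists did not overlap, skeletal muscle and thymus, both lower in AD, against 24.3% of single genes tested. The 6 thymus markers summed to 5.79 to 12.1 CPM in AD lung, where Dntt, Rag2 and Ptcra were at 0. They summed to 14.3 to 38.6 CPM in control lung, with Rag2 and Foxn1 at 0, and 22.3 to 104 CPM in control skin. The part of these lists in the values of the immediate early genes was not tested.

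The AD effect on Fos, Fosb and Egr1 differed between the tissues. In a single fit over 18 libraries, the AD effect in skin minus that in lung was called for 3 of 10 genes, all lower, against 14.7% of all genes called in either direction and 5.30% called lower. The difference was -4.02 ± 0.92 log2 units for Fos (edgeR adjusted p = 0.0133), -5.89 ± 1.24 for Fosb (edgeR adjusted p = 0.0115) and -2.70 ± 0.61 for Egr1 (edgeR adjusted p = 0.0131). All 3 kept their calls under every alternative that was run, and without any single library of the 4 groups, with values between -4.48 and -2.89 for Fos, -6.97 and -4.57 for Fosb and -3.20 and -2.27 for Egr1. The nearest to 0 for Fos and Fosb were those without skin control replicate 3. Related genes with a lower AD effect in skin than in lung included Fosl2 (-2.25 ± 0.50), Sik1, a kinase induced by cAMP (-2.80 ± 0.78), Arc, a neuronal immediate early gene at low level (-3.76 ± 1.09), and the mRNA decay factors Zfp36 (-1.83 ± 0.55) and Zfp36l1 (-1.81 ± 0.44). By list these were 2 of 12 AP-1 and ATF subunits, 2 of 31 other immediate early genes and 3 of 16 feedback inhibitors, with 0 genes of these 3 lists called higher. Fosl2 and Zfp36l1 kept their calls in all 19 alternatives, and Sik1, Arc and Zfp36 lost theirs in 7 of 19 each. In other lists the AD effect was higher in skin than in lung for Hspe1 (2.43 ± 0.68), Ankrd37, a hypoxia-induced gene (2.20 ± 0.64), and Atf4, the main factor of the integrated stress response (1.26 ± 0.40), which lost their calls in 7, 9 and 12 of 19 alternatives.

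For the emollient, the effect over AD in skin minus that in lung was called in edgeR for 0 of 10 genes, against 1.62% of all genes, with 3 at an unadjusted p under 0.05, against 24.5% of all genes, and 0 in DESeq2, against 10.6%. The differences were 1.73 ± 0.61 for Egr1, 2.56 ± 1.20 for Fosb and 1.09 ± 0.50 for Egr2 (edgeR adjusted p = 0.104, 0.198 and 0.185). Fosl2 was the 1 related AP-1 gene called (2.07 ± 0.50, edgeR adjusted p = 0.0472), and it lost this call in 12 of 19 alternatives.

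Within groups, single libraries were high or low for several of the genes. In control skin, replicate 3 was highest for 6 of the 10 genes and replicate 2 lowest for 6, and in La-Cer skin replicate 3 was highest for 7. In AD lung, replicate 3 was lowest for 7 of the 9 tested genes and highest for 0. For these counts, and for that of control lung replicate 1, the share over all genes is not given here. Whether they are particular to these genes was not tested. The mean of the genes' log2 CPM, each centred over the 9 libraries of its tissue, was -0.27, -0.13 and 0.04 in La-Cer skin, 0.02, -0.46 and -0.95 in AD skin and 0.58, 0.15 and 1.04 in control skin. In lung it was -0.10, 0.08 and -0.15 in La-Cer, 0.56, 0.37 and -0.09 in AD and -0.66, 0.04 and -0.06 in control. The median SD of log2 CPM within a group was 0.592 for the 10 genes and 0.472 for all genes in La-Cer skin, 0.313 and 0.544 in AD skin, and 0.399 and 0.406 in control skin. In lung it was 0.192 for the 9 tested genes and 0.174 for all genes in La-Cer, 0.460 and 0.293 in AD, and 0.617 and 0.484 in control.

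**Figure D5:**
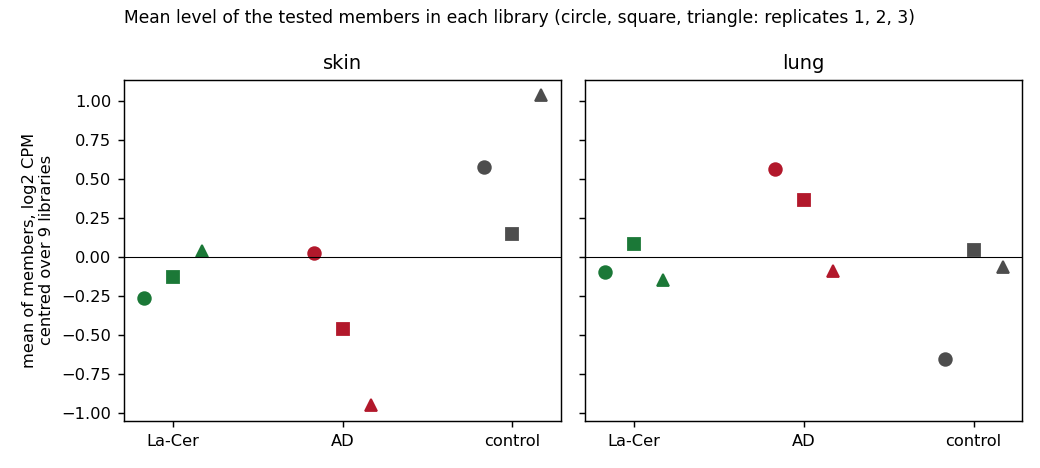
Mean of the immediate early genes' log2 CPM, each gene centred over the 9 libraries of its tissue (vertical axis), in each skin and lung library of La-Cer, AD and control mice (horizontal axis); symbols are replicates. Control replicate 3 is the highest skin library at 1.04 and AD replicate 3 the lowest at -0.95.

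The genes whose log2 CPM most resembled that mean over the 9 libraries of a tissue were, in skin, Adi1 (Pearson r = 0.965), Prnp (0.925), Rusc2 (0.921), Flcn (0.916) and Npr2 (0.908). In lung they were Nckap5 (0.970), Gpam (0.968), Tmem189 (0.965), Slc7a8 (0.965) and Ern1 (0.964). These values are descriptions over 9 libraries that share group, depth and length trend.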

How the data were processed

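Skin and lung libraries were prepared with a SMARTER mRNA-Seq kit (input 1.5 µg total RNA), per the labels' protocols. Tools named in the submitters' processing notes are cutadapt 1.9.1 and bcl2fastq 2.17.1.14, with the build GRCm38. Aligner, counter and strandedness: not given in the sources used here. Reads of overlapping or antisense genes could not be told apart. The deposited tables hold raw read counts per gene and the authors' FPKM, per the file headers. The FPKM equal count over exonic size and column total to within 0.005, so they add no second measurement and served only to compare levels between genes.

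Each tissue's 9 libraries were fitted with edgeR 4.0.16 in R 4.3.3 (TMM, filterByExpr on groups, robust quasi-likelihood test), with p adjusted by Benjamini-Hochberg over all genes tested and called under 0.05. Contrasts across tissues used all 18 libraries. CPM are TMM-scaled, and SE is the log2 difference over the square root of F. Nothing in the labels states that libraries of a group are separate cultures or litters, so p-values measure the spread between these libraries. Columns of both tissues share some codes, here called mouse codes, in the control and La-Cer groups. The labels do not state whether a shared code marks the same mouse. The AD columns share no code, as theirs begin with om in skin and M in lung, so a block on the code cannot link AD skin with AD lung. With limma 3.58.1 voom and the code as a random block, the correlation was 0.117. Replicate numbers paired the libraries only between La-Cer and control lung (correlations of deviations 0.133 to 0.308), as a property of the data, and the blocked fit called 0 members there as did the unblocked one. Alternatives were RLE factors, DESeq2 1.42.0, no low-count filter, only the libraries compared, the replicate block, removal of a loess trend on exonic size (span 0.5), the mouse code block for contrasts across tissues, FPKM for levels, and leaving out each replicate. The procedure was tested on simulated counts.

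The genes, related lists and tests were chosen with earlier results of these data known. Named are the 10 genes, up to 4 called genes per list with the smallest p (some with their values only in part), and the 5 genes per tissue with the highest correlation with the mean of the 10 among those of at least 1 CPM. Lists without a call are given as counts, and of the lists compared between control tissues 3 genes are named, chosen after their values were seen. Low counts limit the precision of Fosl1.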

Additional observations from a re-analysis of the deposited data

Results flagged for a closer look

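The AD effect differed between skin and lung in a test of the difference itself for 3 of the genes. The AD effect in skin minus that in lung was -4.02 log2 units for Fos, -5.89 for Fosb and -2.70 for Egr1. Fos fell to 15.1, 18.8 and 20.6 CPM in AD skin, against 73.1, 88.9 and 370 CPM in control skin, while lung libraries stood at 71.4, 35.3 and 24.5 CPM in AD and 17.5, 38.6 and 18.7 CPM in control. Whether AD skin and AD lung came from the same mice is not given in the sources used here, and their columns share no code. No value of these data measures the interval between killing and extraction, and its part in the difference was not tested.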

How the results depend on the processing

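The count of called members moved in these cases. In AD against control skin (3 members) it was 0 with the replicate block, 0 with the length trend removed and 0 to 2 without 1 replicate, the 2 being Fos and Egr1 without control replicate 3. In La-Cer against control skin (0) DESeq2 gave 1. In AD against control lung (0) DESeq2 gave 2 and no filter 1. In La-Cer against AD lung (0) DESeq2 gave 3, no filter 1, the length trend removed 1 and only the libraries compared 4. For the La-Cer effect between tissues (0), only the libraries compared gave 1. Without 1 replicate the count was 6 to 7 for control skin against control lung (7), 3 for the AD effect between tissues (3) and 0 in the other comparisons.

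Replicate numbers did not pair the libraries in the other within-tissue comparisons (correlations -0.726 to 0.264), where the block lowered the calls over all genes to 0 of 1163 in AD against control skin, 0 of 8 in AD against control lung and 12 of 330 in La-Cer against AD lung. DESeq2 called 3095, 1492 and 2502 genes in these 3 comparisons, 984 in La-Cer against AD skin and 67 in La-Cer against control skin, where edgeR called 0. Without 1 replicate the calls were 0 to 535, 0 to 992 and 0 to 16 in the first 3. No filter gave 1908 in AD against control skin and 134 in AD against control lung, and 449 and 7 in La-Cer against AD and against control skin. The length trend removed gave 0 in AD against control skin and 104 in AD against control lung. The libraries compared alone gave 590 in AD against control skin, 0 in AD against control lung and 4034 in La-Cer against AD lung. RLE gave 20 in AD against control lung. La-Cer against control lung (6) ranged from 0 to 22. The block gave 4872 of 8184 for control skin against control lung. Alternatives ranged from 1001 to 4131 for the AD effect between tissues (2819) and from 6 to 2035 for the La-Cer effect (309).

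The following uncalled values reversed. With the length trend removed: Junb in La-Cer against control skin (-0.21), Atf3 in AD against control skin (-0.076), Egr2 in La-Cer against AD skin (-0.00064), Junb in AD against control lung (0.12), the AD effect between tissues for Ier2 (-0.18) and Ier3 (-0.34), and the La-Cer effect between tissues for Fosl1 (0.15) and Junb (0.31). With the replicate block: Junb in La-Cer against control skin (-0.062), and in La-Cer against control lung Atf3 (0.025) and Egr1 (0.054). Without the filter: Ier3 in La-Cer against AD lung (0.023) and Atf3 in La-Cer against control lung (0.0093). With the mouse code block: Fosl1 for the La-Cer effect between tissues (0.026).

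Leaving out 1 replicate turned the direction of members with no call, with these ranges: for the AD effect between tissues Atf3 -1.52 to 0.41; for the La-Cer effect between tissues Atf3 -1.35 to 0.91, Fosl1 -1.11 to 0.73, Ier3 -0.069 to 0.28, Junb -0.45 to 0.11; in AD against control lung Junb -0.40 to 0.096. Also in La-Cer against AD lung Fos -1.30 to 0.10, Ier3 -0.058 to 0.060, Jun -0.049 to 0.42, and in La-Cer against control lung Atf3 -0.28 to 0.23, Egr1 -0.58 to 0.34, Egr2 -0.23 to 0.43, Fos -0.50 to 0.82, Fosb -0.42 to 0.091, and in AD against control skin Atf3 -1.11 to 0.78, Egr2 -0.039 to 0.30, and in La-Cer against AD skin Atf3 -1.74 to 0.45, Egr2 -0.13 to 0.25, Fosb -0.16 to 1.45, Ier2 -0.085 to 0.52, Ier3 -0.011 to 0.34, and in La-Cer against control skin Egr2 -0.0051 to 0.38, Fosl1 -1.29 to 0.059, Ier2 -0.37 to 0.21, Junb -0.30 to 0.26. None of Fos, Fosb, Jun and Egr1 in AD against control skin reversed under any alternative run, and their ranges without 1 replicate were -3.67 to -2.10, -4.92 to -2.50, -1.29 to -0.98 and -2.42 to -1.94. By the authors' FPKM in place of CPM, the log2 ratio of means moved for Jun (-1.42) and Ier3 (0.47) in AD against control skin and for Jun in La-Cer against AD skin (0.87). Where an alternative moved a value, the cause was not tested.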

Other observations

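Between control skin and control lung, 21 of 31 other immediate early genes passed edgeR's test, 8 higher and 13 lower in skin, where 42.8% of all genes were called. Among those, Egr3 was higher in control skin than in control lung by 6.39 ± 0.72 log2 units (edgeR adjusted p = 2.17e-06), with means of 152 CPM in control skin and 1.79 CPM in control lung, and Myc, a regulator of cell growth, by 3.29 ± 0.32 (edgeR adjusted p = 5.37e-07). Klf2, a factor of endothelium under shear stress, was lower in control skin by -4.25 ± 0.42 (edgeR adjusted p = 5.57e-07), with means of 15.5 CPM in control skin and 295 CPM in control lung.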
